A study of Mus musculus with 4 samples.

Results

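The ATP-binding cassette (ABC) genes were measured in the atria and ventricles of mice with and without the muscle transcription factor gene Mef2a. The family was taken as every probe set whose mouse symbol begins with Abc, a subfamily letter from a to g and a number, and 48 of 18781 named genes matched. They divided into 16 genes of subfamily A, 9 of B, 10 of C, 3 of D, 1 of E, 3 of F and 6 of G. The samples were knockout atria and knockout ventricles (Mef2a-/-), and wild type atria and wild type ventricles (Mef2a+/+). All mice were 2 months old, both sexes were used, and each group was 1 Affymetrix array of RNA pooled from 7 mice. The sources used here state neither which part of Mef2a was deleted nor how many mice of each sex a pool held. With 1 array per group there was no replicate spread, so a ratio of 2 arrays has no test of its own and describes these pools only.

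ABC proteins share a nucleotide-binding domain that hydrolyses ATP, and in most of them this drives a substrate across a membrane. Subfamilies A and G move mainly sterols and phospholipids, B holds drug efflux pumps and organelle transporters, C holds conjugate exporters and the regulatory subunits of a potassium channel, and D serves peroxisomes and lysosomes. Members of E and F have no membrane domain and act on ribosomes and translation. In heart muscle the family is best known for the sulphonylurea receptors Abcc8 and Abcc9, which make the ATP-sensitive potassium (KATP) channel respond to the energy state of the cell.

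Array medians lay between 5.66 and 5.75 on the log2 intensity scale. The knockout atria array had a narrower interquartile range, 2.97, than the other 3 arrays, at 3.18 to 3.21. Mef2a itself read 10.41 in knockout atria and 10.32 in wild type atria, and 10.34 in knockout ventricles and 10.28 in wild type ventricles, so the probe set did not check the genotype labels. The tissue labels did match their markers: all 5 atrial muscle markers were over 2-fold higher in atria in both genotypes, and the 4 ventricular markers had log2 ratios from −3.79 to −0.97. None of the 5 lung epithelium markers and none of the 4 lymphocyte markers measured reached 5.71, the median over all probe sets and arrays, which serves below as a floor. A ratio was counted when the brighter array of the pair reached the floor and the ratio reached 1.5-fold between genotypes or 2-fold between chambers.

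Of the 48 genes, 26 were at or above the floor on all 4 arrays, 7 on some arrays and 15 on none. The 15 low genes were Abca12, Abca13, Abca14, Abca15, Abca16, Abca17, Abcb5, Abcb11, Abcc2, Abcc3, Abcc6, Abcc12, Abcg3, Abcg5 and Abcg8. Several of these have known roles in epithelia of other organs, such as the bile salt pump Abcb11 of liver, the sterol exporters Abcg5 and Abcg8 of liver and gut, and the skin lipid transporter Abca12. The 7 genes that crossed the floor were Abca4, Abca6, Abcb1b, Abcb4, Abcb9, Abcd2 and Abcg4, and they include every gene counted between genotypes below. Values of different probe sets were not set against each other, since probes differ in brightness.

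**Figure D1:**
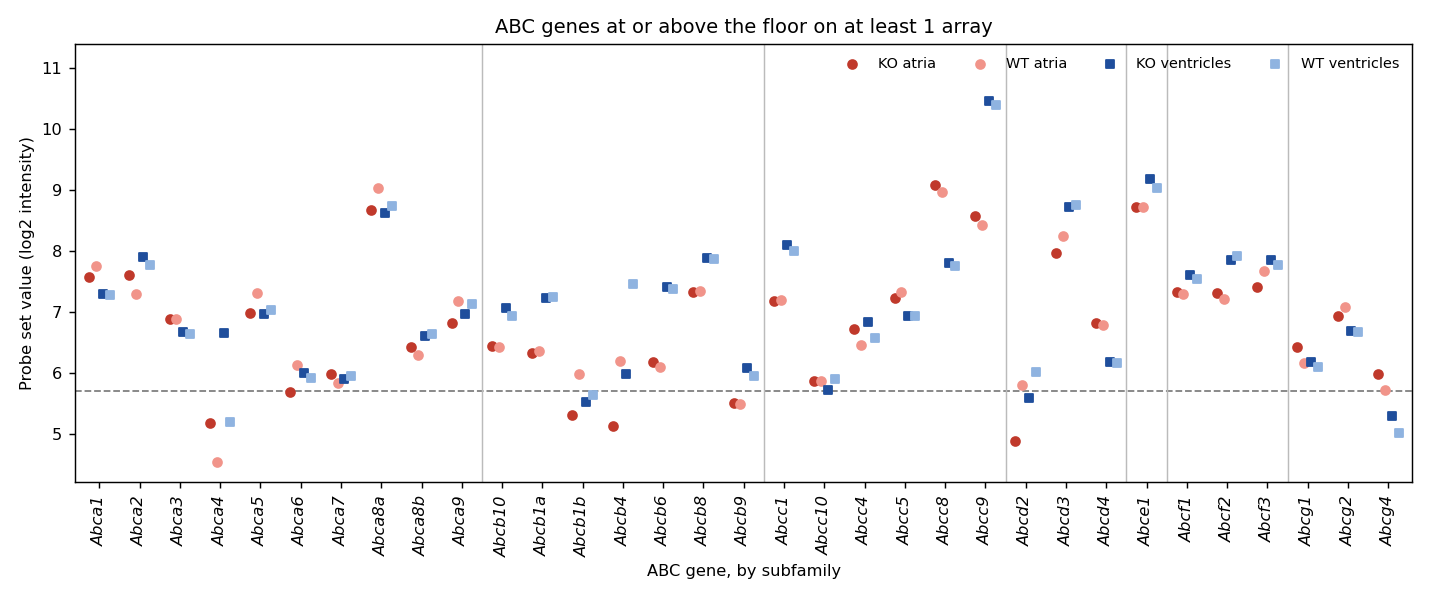
Value of each of the 33 ABC genes that reached the floor on at least 1 array (log2 intensity, 1 point per array, 1 array of 7 pooled mice per group). The dashed line is the floor at 5.71 and grey lines part the subfamilies. Abcc9 is higher in both ventricular arrays and Abcc8 in both atrial arrays, and Abcb4 is lower in each knockout array than in the wild type array of that chamber.

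Between genotypes, 4 ABC genes passed the fold. In atria 3 of 31 genes above the floor were lower in the knockout and 0 were higher (9.68%), beside 3.03% of all 10050 genes counted in either direction with 1.02% higher and 2.01% lower. In ventricles 1 of 31 was higher and 1 lower (6.45%), beside 1.2% of all 9712 genes, 0.515% higher and 0.69% lower. With counts this small and no replicate arrays, the shares describe these pools and no excess was tested. Abcb4 was lower in both chambers, Abcb1b and Abcd2 were lower in atria, and Abca4 was higher in ventricles. All 3 genes lower in atria were under the floor in knockout atria. They were thus counted there through the wild type array, where they were high. Without a floor, Abca15 and Abca4 also passed in atria, as higher in the knockout. Cell type markers also passed the fold in atria, 2 of 63 higher and 8 lower (15.9%), beside 1 of 57 in ventricles, and their part in the atrial values was not tested. The higher ones were the smooth muscle gene Acta2 at 0.61 and the mesothelial and epicardial gene Krt18 at 0.60. The lower ones included the platelet gene Ppbp at −2.12, the smooth muscle gene Cnn1 at −1.29 and Hbb-bt of red cells at −0.74. The fibroblast genes Lum, Pdgfra and Dpt were also lower, at −0.84, −0.63 and −0.62. So were Tnnt3 and Tnni2 of skeletal muscle, at −0.66 and −0.59, while Ckm, the other skeletal muscle marker above the floor, was at −0.01. Skeletal muscle markers under the floor ranged from −0.44 for Myh4 to 0.27 for Actn3. Smooth muscle markers thus went both ways, and the 6 mesothelial and epicardial markers had a median of 0.13 in atria.

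Genotype was also fitted over both chambers. Limma was given genotype and chamber as additive terms over the 4 arrays, with 9640 genes whose mean reached the floor, 29 of them ABC genes. This fit has 1 residual degree of freedom, and its error is the difference of the genotype effect between chambers. No group had a replicate array, so the fit measures neither the spread between pools nor that between mice. Limma added 6.33 prior degrees of freedom estimated over all fitted genes, so each SE rests mostly on other genes. Abcb4 alone of the 29 ABC genes passed an adjusted p of 0.05, beside 0.228% of all genes, 0.0519% higher and 0.176% lower. Its log2 difference was −1.27 (SE 0.12), with a Benjamini-Hochberg adjusted p of 0.0121 in limma, and it was lower in both chambers. At an unadjusted p under 0.05 in limma there were 3 of 29 ABC genes, Abcb4, Abca9 and Abcc4. Over all genes it was 968 of 9640, a like share. Abcb1b, Abcd2 and Abca4 had means under the floor and were not in this fit.

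Abcb4 encodes a pump of the liver canalicular membrane that moves phosphatidylcholine to the outer leaflet. It read 5.13 in knockout atria, against 6.20 in wild type atria. The log2 ratio was −1.07, or 2.1-fold lower, and the ratio was the 44th lowest of 10050 genes. In ventricles it read 5.98 in the knockout, against 7.46 in wild type, a log2 ratio of −1.48 or 2.78-fold lower, and the 10th lowest of 9712. Both wild type arrays were thus brighter than the knockout array of their chamber, and the knockout atria value lay under the floor. The atrial ratio minus the ventricular one was 0.41, a difference that had no test.

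Abcb4 lies on chromosome 5 next to Abcb1b and Abcb1a, the pair of mouse genes for P-glycoprotein, which exports drugs and other hydrophobic compounds. Abcb1b read 5.31 in knockout atria and 5.98 in wild type atria, and 5.52 in knockout ventricles and 5.64 in wild type ventricles. Its log2 ratio was −0.67 in atria, past 1.5-fold, while both ventricular values were under the floor. Abcb1a read 6.32 in knockout atria and 6.35 in wild type atria, and 7.22 in knockout ventricles and 7.25 in wild type ventricles. Its ratios of −0.03 and −0.02 were close to 0 in both chambers. The 3 genes are close relatives, and whether their probe sets share signal was not tested, because probe sequences were not used here.

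The other genes around Abcb4 did not pass the fold in either chamber. On the far side of Abcb4, Crot, a peroxisomal carnitine acyltransferase gene, had ratios of −0.24 in atria and 0.02 in ventricles. Tmem243 and Dmtf1 followed it, with atrial ratios of −0.40 for each gene. Their ventricular ratios were −0.15 and −0.11. Beyond Abcb1a stood Rundc3b, under the floor on all 4 arrays, and the mitochondrial carrier gene Slc25a40 at −0.34 in atria and −0.11 in ventricles.

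**Figure D2:**
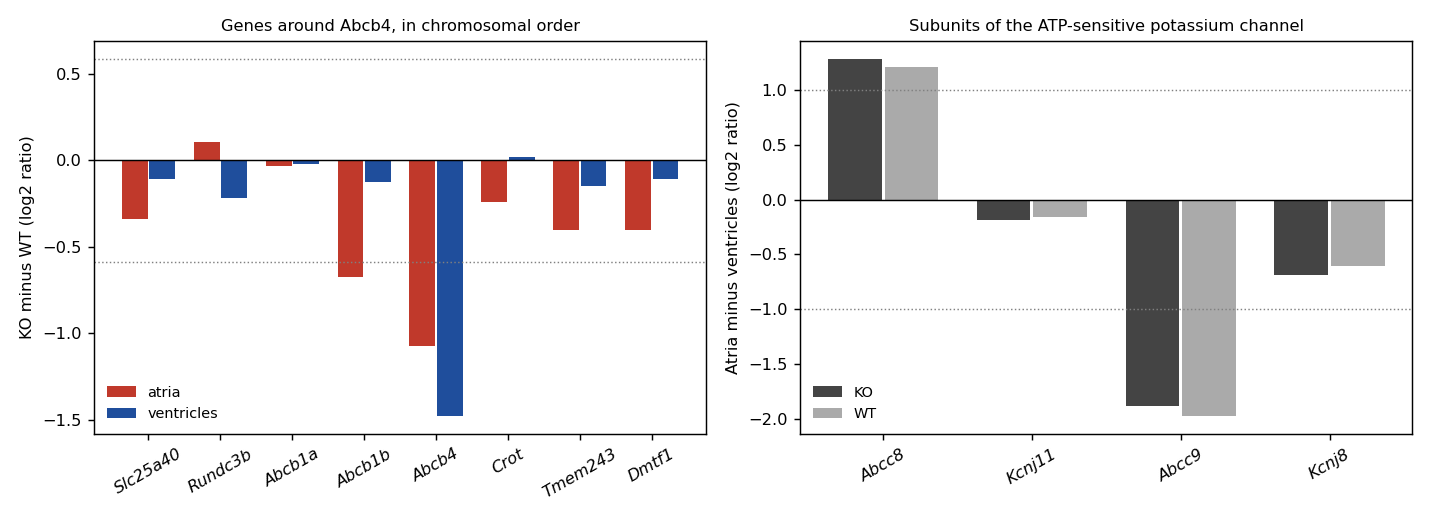
Left, log2 ratio of knockout to wild type for Abcb4 and the genes around it in chromosomal order, in atria and in ventricles. Right, log2 ratio of atria to ventricles for the subunits of the KATP channel in knockout and in wild type. Bars are single ratios of 2 arrays without error, and dotted lines mark 1.5-fold on the left and 2-fold on the right. Abcb4 reaches −1.07 and −1.48, and Abcc8 and Abcc9 point in opposite directions.

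The start regions of these genes are shown to set the lower gene Abcb4 beside its neighbours of differing ratio. They are RefSeq promoter windows of build GRCm38.p6, each with 250 bases before the start and 50 after it, 5′ to 3′ on the gene's strand. Capitals mark the GC box GGGCGG, searched on both strands.
Abcb4 (chr5:8893471-8893770, plus strand): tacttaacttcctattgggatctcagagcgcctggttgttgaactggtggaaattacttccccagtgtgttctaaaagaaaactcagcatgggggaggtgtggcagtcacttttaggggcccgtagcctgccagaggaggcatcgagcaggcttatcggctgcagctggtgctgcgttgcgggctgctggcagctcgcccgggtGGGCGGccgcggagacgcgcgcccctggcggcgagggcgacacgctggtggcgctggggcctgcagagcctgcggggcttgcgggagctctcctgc
Abcb1b (chr5:8797897-8798196, plus strand): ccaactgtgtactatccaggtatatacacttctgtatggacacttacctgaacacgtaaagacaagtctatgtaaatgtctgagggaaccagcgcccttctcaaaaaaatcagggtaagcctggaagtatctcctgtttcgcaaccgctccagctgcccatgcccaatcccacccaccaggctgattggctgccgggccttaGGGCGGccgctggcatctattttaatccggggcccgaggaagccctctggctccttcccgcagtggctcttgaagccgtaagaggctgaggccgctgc
Abcb1a (chr5:8566841-8567140, plus strand): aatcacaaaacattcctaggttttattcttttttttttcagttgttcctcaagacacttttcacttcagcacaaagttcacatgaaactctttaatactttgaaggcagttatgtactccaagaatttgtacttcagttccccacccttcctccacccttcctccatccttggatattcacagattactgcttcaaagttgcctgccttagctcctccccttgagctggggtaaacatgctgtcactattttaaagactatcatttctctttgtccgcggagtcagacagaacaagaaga
The windows of Abcb4 and Abcb1b each held 1 GC box at a like distance from the start, from −46 to −41 and from −48 to −43, and that of Abcb1a held 0. Their GC contents were 64.0%, 55.0% and 40.3%. A GC box occurred in 35.7% of all 32851 promoter windows and in 21 of the 45 windows that matched 38 ABC genes (46.7%).

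Abca4, the flippase that clears retinoid conjugates from photoreceptor discs, was the ABC gene counted as higher. It read 6.65 in knockout ventricles, against 5.20 in wild type ventricles, a log2 ratio of 1.45 or 2.73-fold. The ratio was the 6th highest of 9712 genes. In atria it read 5.18 in the knockout and 4.53 in wild type, a ratio of 0.65 between values that were both under the floor. Knockout ventricles were the single array on which Abca4 reached the floor, so it was counted through the array where it was high. Its neighbours Arhgap29 and Gclm had ventricular ratios of 0.13 and 0.33. The window at its start is shown because this gene was the one counted as higher, with the TATA box TATAAA in capitals.
Abca4 (chr3:122044210-122044509, plus strand): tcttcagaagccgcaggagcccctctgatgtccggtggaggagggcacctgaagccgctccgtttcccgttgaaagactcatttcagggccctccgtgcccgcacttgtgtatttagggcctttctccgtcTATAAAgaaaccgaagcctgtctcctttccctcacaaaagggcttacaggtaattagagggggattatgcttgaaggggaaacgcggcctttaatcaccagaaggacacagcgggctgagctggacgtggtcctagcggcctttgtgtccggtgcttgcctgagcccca
TATAAA was found on either strand in 13.6% of all windows and in 7 of the 45 ABC windows (15.6%). In Abca4 it lay from −119 to −114, and it was the motif's only match in that window.

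Abcd2 encodes a peroxisomal importer of very long-chain fatty acyl-CoA. It read 4.88 in knockout atria and 5.80 in wild type atria, a log2 ratio of −0.92 or 1.89-fold lower. In ventricles it read 5.59 in the knockout and 6.02 in wild type, a ratio of −0.43 that stayed short of 1.5-fold. Both knockout arrays were below the floor and both wild type arrays above it. Abcd3, the major peroxisomal ABC protein, had ratios of −0.27 in atria and −0.03 in ventricles, and Abcd4, which serves cobalamin release from lysosomes, had 0.03 and 0.02.

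**Figure D3:**
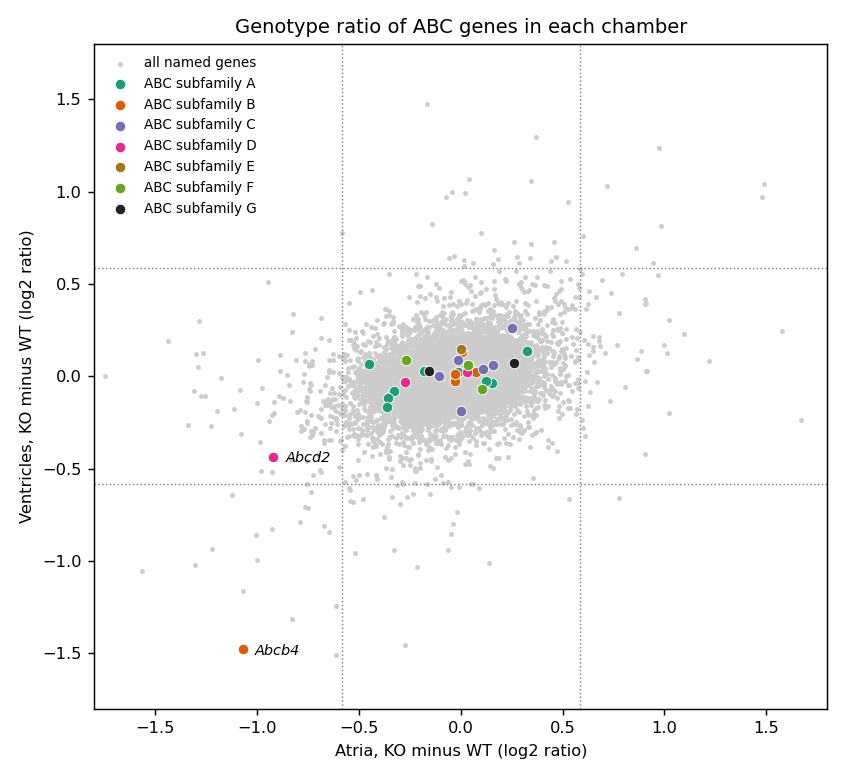
Log2 ratio of knockout to wild type in atria (horizontal axis) and in ventricles (vertical axis) for 9436 genes above the floor in both, with 29 ABC genes in colour by subfamily. Dotted lines mark 1.5-fold, and 12 of the genes lie outside the axes, none of them an ABC gene. Abcb4 lies past the lines in both chambers, Abcd2 lies past the line in atria alone, and Abcb1b and Abca4 are not drawn because they were under the floor in 1 chamber.

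The remaining genes above the floor stayed under 1.5-fold between genotypes, and so did the median of every subfamily. Median log2 ratios in atria were −0.18 for A, −0.03 for B, 0.06 for C, −0.27 for D, 0.03 for F and 0.26 for G, over 9, 6, 6, 3, 3 and 3 genes, with 0.00 for Abce1. The median of B turned to 0.02 under quantile normalization and to 0.01 under lowess centring, and Abce1 to −0.03 under median centring. Over all 31 genes the median was −0.01, beside −0.03 over all genes, and it became 0.05 and 0.03 under quantile normalization and lowess centring. In ventricles the median over 31 genes was 0.03, beside 0.00 over all genes, with subfamily medians from −0.03 for D to 0.06 for F and 0.15 for Abce1. In that chamber the sign of the subfamily A median, close to 0, turned under all 3 other scalings.

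Low ABC genes had mostly positive ratios in atria, as low genes did in general on these arrays. Of 17 genes below the floor in atria, 15 had positive ratios, with a median of 0.21 and a highest value of 0.75 for Abca15. Over all 8731 genes below the floor, 75.1% were positive and the median was 0.13. The part of the narrower spread of the knockout atria array was not tested. In ventricles 11 of 17 were positive with a median of 0.02, beside 0.00 over all genes.

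A run of 5 related subfamily A genes on chromosome 11 had mostly negative ratios in atria. Abca5 read 6.99 in knockout atria and 7.32 in wild type atria, and 6.96 in knockout ventricles and 7.04 in wild type ventricles. Abca6 read 5.69 in knockout atria and 6.14 in wild type atria, and 5.99 in knockout ventricles and 5.92 in wild type ventricles. Their atrial ratios were −0.33 and −0.45. Abca9 read 6.82 in knockout atria and 7.18 in wild type atria, and 6.96 in knockout ventricles and 7.12 in wild type ventricles. Abca8b, with an atrial ratio of 0.12, read 6.42 in knockout atria and 6.30 in wild type atria, and 6.60 in knockout ventricles and 6.63 in wild type ventricles. It was the exception to the negative atrial signs, while Abca8a and Abca9 were both at −0.36. Abca8a read 8.68 in knockout atria and 9.04 in wild type atria, and 8.62 in knockout ventricles and 8.73 in wild type ventricles. The median of the 5 was −0.36 in atria and −0.08 in ventricles, with negative signs under every scaling tried. Fibroblast markers moved the same way, and their part in these values was not tested: all 8 had negative ratios in atria (median −0.44, summed level 12.66 in the knockout and 13.08 in wild type) and in ventricles (median −0.15, 12.20 in the knockout and 12.31 in wild type). In bulk tissue fewer cells of a type and less RNA per cell cannot be told apart.

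Several sterol and drug exporters outside that run had small genotype ratios, unlike the P-glycoprotein gene Abcb1b, at −0.67 in atria. Abca1, which loads cholesterol and phospholipid onto apolipoprotein A-I, read 7.58 in knockout atria and 7.76 in wild type atria, and 7.30 in knockout ventricles and 7.27 in wild type ventricles. Abcg1, which passes sterols to lipoprotein particles, had ratios of 0.26 in atria and 0.07 in ventricles. Abcg2, an exporter of drugs and urate, read 6.93 in knockout atria and 7.08 in wild type atria, and 6.69 in knockout ventricles and 6.66 in wild type ventricles. None of these 3 exporters reached 1.5-fold. Macrophage markers, a cell type in which Abca1 and Abcg1 are well known, had medians of 0.03 in atria and −0.14 in ventricles over 7 genes. Abca2 was at 0.33 in atria. Abcc4, an exporter of cyclic nucleotides and prostanoids, was at 0.25 in atria and 0.26 in ventricles.

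Between chambers, 4 ABC genes passed 2-fold in each genotype. In the knockout 1 of 31 genes above the floor was higher in atria and 3 were lower (12.9%), beside 6.3% of all 10120 genes. In wild type 1 of 32 was higher and 3 were lower (12.5%), beside 6.1% of all 10034 genes. By direction, 3.46% of all genes were higher and 2.85% lower in the knockout, and 3.89% and 2.21% in wild type. In the knockout this balance depended on scaling, with 350 genes higher and 288 lower as deposited and 305 and 377 after median centring. Abcc8, Abcc9 and Abcb6 were counted in both genotypes, Abca4 in the knockout alone and Abcb4 in wild type alone. The pair of chamber comparisons share no array with each other, but each shares its arrays with the genotype comparisons above.

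In the additive fit, 17 of 29 ABC genes differed between chambers at an adjusted p under 0.05 in limma, 5 higher and 12 lower in atria. This compares with 36.6% of all genes, 15.2% higher and 21.4% lower. Abcc9 had the lowest log2 difference, −1.93 (SE 0.09), with an adjusted p of 1.35e-05 in limma. Abcc8 had the highest, with an adjusted p of 9.6e-05 in limma. The other 4 higher genes were Abcd4, Abca1, Abcc5 and Abcg2.

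Abcc9, the KATP regulatory subunit of ventricular muscle and of vessels, had the lowest chamber ratio of the family. It read 8.58 in knockout atria and 10.46 in knockout ventricles, and 8.43 in wild type atria and 10.40 in wild type ventricles. The log2 ratios were −1.88 in the knockout and −1.97 in wild type, or 3.68-fold and 3.93-fold lower in atria. Abcc8, the other KATP regulatory subunit, read 9.08 in knockout atria and 7.80 in knockout ventricles, and 8.97 in wild type atria and 7.76 in wild type ventricles. Its ratios were 1.28 and 1.21, or 2.43-fold and 2.31-fold higher in atria. The 2 regulatory subunits were thus opposite between chambers in both genotypes, and neither differed by more than 0.16 between knockout and wild type of the same chamber.

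The pore subunits of the channel are encoded by genes that lie beside these, Kcnj11 next to Abcc8 and Kcnj8 next to Abcc9. Kcnj11 read 7.90 in knockout atria and 8.09 in knockout ventricles, and 7.79 in wild type atria and 7.95 in wild type ventricles. Its chamber ratios of −0.19 and −0.16 did not follow the higher atrial signal of Abcc8. Kcnj8 read 7.45 in knockout atria and 8.14 in knockout ventricles, and 7.53 in wild type atria and 8.14 in wild type ventricles, with ratios of −0.69 and −0.60. It had the sign of Abcc9 without passing 2-fold. Pericytes also carry Abcc9 and Kcnj8, and their part in the ratio was not tested. All 6 pericyte markers, Kcnj8 among them, were lower in atria (medians of −0.59 in the knockout and −0.63 in wild type). Their summed level was 10.68 in knockout atria and 11.33 in knockout ventricles, and 10.68 in wild type atria and 11.50 in wild type ventricles.

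The Abcc9 window is shown because it held a match to the consensus of the MEF2 factors, given in capitals, in a gene whose genotype ratios were small.
Abcc9 (chr6:142702225-142702524, minus strand): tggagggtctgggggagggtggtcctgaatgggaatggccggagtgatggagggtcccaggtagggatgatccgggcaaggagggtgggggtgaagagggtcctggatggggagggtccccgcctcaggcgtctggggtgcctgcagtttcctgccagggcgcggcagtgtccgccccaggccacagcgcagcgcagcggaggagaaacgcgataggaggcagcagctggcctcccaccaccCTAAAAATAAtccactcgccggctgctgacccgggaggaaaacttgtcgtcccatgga
The match lay from −8 to 2 around the start, on the strand of the gene. The pattern searched for the MEF2 consensus was CTAWWWWTAR, where W is A or T and R is A or G. It does not match a site that starts with TTA and ends with TAA. This pattern was found on either strand in 1.86% of all windows and in 2 of the 45 ABC windows (4.44%), those of Abcc9 and Abca8a. In Abca8a it read CTATAATTAG and lay from −225 to −216. The windows of Abcb4, Abcb1b and Abca4, which were counted between genotypes, held no match, which says only that those letters are absent from these windows. Abcd2, the other gene counted, had no match listed either. A window was available for 38 of the 48 ABC genes, and none is shown for Abcd2. The DR4 element of the sterol-sensing LXR receptors, also searched on both strands, was in 0 of the 45 ABC windows and in 27 of all windows (0.0822%).

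**Figure D4:**
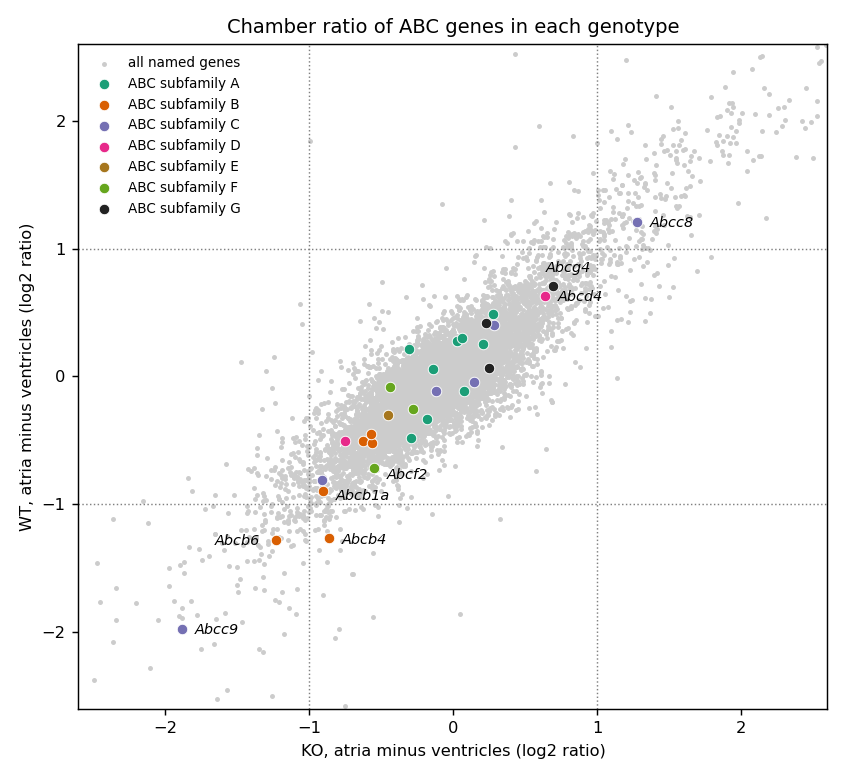
Log2 ratio of atria to ventricles in the knockout (horizontal axis) and in wild type (vertical axis) for 9828 genes above the floor in both, with 30 ABC genes in colour by subfamily. Dotted lines mark 2-fold, and 68 of the genes lie outside the axes, none of them an ABC gene. Abcc8 lies at the top right and Abcc9 at the bottom left, and Abcb4 is past the line in wild type only.

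Most subfamily B genes were lower in atria. Abcb6, a porphyrin transporter found in mitochondria and other membranes, read 6.18 in knockout atria and 7.40 in knockout ventricles, and 6.10 in wild type atria and 7.38 in wild type ventricles. Its ratios were −1.23 in the knockout and −1.28 in wild type. The mitochondrial inner membrane transporters Abcb8 and Abcb10, which serve iron and heme metabolism, had −0.56 and −0.63 in the knockout and −0.52 and −0.50 in wild type. Abcb1a had −0.90 in both genotypes, and Abcb9, a lysosomal peptide transporter, had −0.57 and −0.45. Abcb4 had −0.86 in the knockout and −1.27 in wild type. The median was −0.74 over 6 genes in the knockout, all negative, and −0.52 over 7 genes in wild type, 6 of them negative, where Abcb1b was at 0.34. Over all genes the medians were −0.05 and −0.01.

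Other subfamilies had smaller or mixed chamber ratios. All 4 genes of E and F were lower in atria in both genotypes, with medians of −0.45 in the knockout and −0.28 in wild type. Abce1, which splits ribosomes after termination, read 8.73 in knockout atria and 9.18 in knockout ventricles, and 8.73 in wild type atria and 9.03 in wild type ventricles. Abcf1, a translation initiation factor, read 7.33 in knockout atria and 7.61 in knockout ventricles, and 7.29 in wild type atria and 7.54 in wild type ventricles. Abcf2 had the lowest ratios of the 4, at −0.55 in the knockout and −0.72 in wild type. In subfamily C the conjugate exporter Abcc1 read 7.18 in knockout atria and 8.09 in knockout ventricles, and 7.20 in wild type atria and 8.01 in wild type ventricles, at −0.91 and −0.81. After median centring Abcc1 just passed 2-fold in the knockout. In subfamily D, Abcd4 was higher in atria at 0.64 and 0.63 while Abcd3 was lower at −0.75 and −0.51.

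The 3 subfamily G genes above the floor were all higher in atria, with medians of 0.25 in the knockout and 0.42 in wild type. Abcg4, a sterol exporter known mainly from brain, read 5.98 in knockout atria and 5.28 in knockout ventricles, and 5.71 in wild type atria and 5.01 in wild type ventricles. Abcg2 had ratios of 0.23 and 0.42. Endothelial markers had medians of 0.07 in the knockout and −0.08 in wild type over 9 genes, and the part of vessels in the ratios of Abcg2 and Abcb1a was not tested. Fibroblast markers were higher in atria, 8 of 8 in both genotypes (medians of 0.47 in the knockout and 0.83 in wild type), and so were 6 of 6 mesothelial and epicardial markers (1.60 and 1.53). Their part in the ratios of subfamilies G and A was not tested either. Subfamily A had a median of −0.06 in the knockout and 0.21 in wild type, with Abca1 at 0.28 and 0.49 and Abca2 at −0.29 and −0.48. Abca4 was at −1.47 in the knockout, and under the floor on both wild type arrays.

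**Figure D5:**
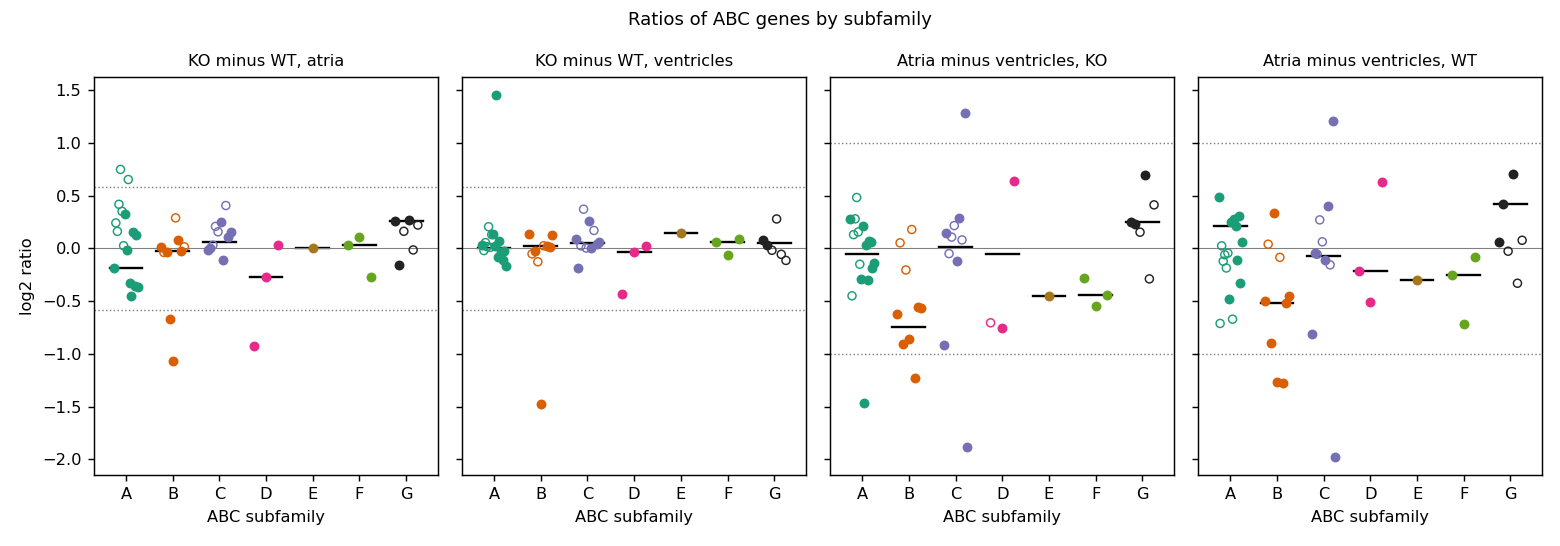
Log2 ratio of every ABC gene by subfamily in the 4 comparisons. Filled points are genes above the floor, open points are genes below it, black bars are medians of the filled points, and dotted lines mark 1.5-fold (genotype) or 2-fold (chamber). Filled points of subfamily B lie below 0 in both chamber comparisons, with medians of −0.74 in the knockout and −0.52 in wild type, except Abcb1b at 0.34 in wild type.

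Side by side, the chamber ratios of the 30 ABC genes above the floor in both genotypes had Pearson's r of 0.96 and Spearman's rho of 0.93, with 26 of 30 of the same sign. Over all 9828 genes the values were 0.90 and 0.81, with 79.1% of the same sign. The genotype ratios of 29 ABC genes in the 2 chambers had r of 0.76 and rho of 0.49, and 17 (58.6%) had the same sign, beside 57.7% of 9436 genes with r of 0.36 and rho of 0.26. These correlations are across genes, which share arrays and pools and are not replicates. The sign share of the ABC genes between chambers was thus close to that of all genes, and Abcb4 lay far from the other points.

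Genes that work with ABC proteins were read in 10 lists. Those lists also held Tap1, Tap2 and Cftr, which are ABC proteins themselves, and the myelin gene Pmp22. In neither chamber did a list member pass 1.5-fold between genotypes. This held for 99 genes above the floor in atria and 98 in ventricles, beside the 3.03% and 1.2% of all genes given above. Between chambers 3 were higher and 4 lower in atria in the knockout, of 101 (6.93%), and 3 higher and 2 lower in wild type, of 97 (5.15%), close to the shares of all genes.

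Among the lists, nuclear receptors, which control many ABC genes, read together with the transcription factor genes Ahr and Nfe2l2, had median genotype ratios of 0.00 in atria over 11 genes and 0.01 in ventricles over 10. Between chambers the vitamin D receptor gene Vdr was higher in atria, at 1.60 in the knockout and 1.65 in wild type, and the retinoid X receptor gene Rxrg was lower at −1.06 and −1.07. Genes of lipoproteins and cholesterol handling had genotype medians of 0.04 and −0.03, and Apoe, the apolipoprotein that accepts exported cholesterol, was higher in atria at 1.13 and 1.23. Mitochondrial iron-sulphur and heme genes had genotype medians of 0.00 and 0.07 over 17 genes each. In that list 16 of 17 were lower in atria in both genotypes, like Abcb6, Abcb8 and Abcb10. Its medians were −0.42 in the knockout and −0.24 in wild type, and the glutaredoxin gene Glrx5 was past 2-fold at −1.15 and −1.02. Alas2, the heme synthesis enzyme of red cells and itself a member of this list, was at −1.19 and −0.83. The globin gene Hbb-bt, outside the list, was at −1.40 and −0.74, and the red cell gene Slc4a1 was under the floor. The part of red cells in the values of this list was not tested.

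Peroxisomal genes had genotype medians of −0.01 in atria over 12 genes and 0.01 in ventricles over 13, beside the lower Abcd2. Pmp22, a myelin gene that the list also held, is left out of these values. Their chamber medians were −0.21 in the knockout and −0.25 in wild type, and the import receptor gene Pex7 was past 2-fold in the knockout at −1.09. Genotype medians in atria and ventricles were −0.05 and 0.00 for peptide loading of MHC class I, −0.12 and 0.04 for ribosome recycling and stress response genes, and −0.08 and −0.01 for phospholipid flippases and scramblases. The flippase gene Atp8b1, which acts beside Abcb4 at the canalicular membrane of liver, read 6.15 in knockout atria and 5.97 in wild type atria, and 6.37 in knockout ventricles and 6.23 in wild type ventricles. Organic anion and cation carriers had 0.00 and 0.05, and the prostaglandin carrier gene Slco2a1 was higher in atria at 1.05 in the knockout and 1.07 in wild type. The KATP pore genes had medians of 0.01 and 0.07.

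Of the 3 ABC proteins under other symbols, Tap1 and Tap2, the peptide transporter of antigen presentation, were measured above the floor. Tap1 read 6.40 in knockout atria and 6.27 in wild type atria, and 6.30 in knockout ventricles and 6.15 in wild type ventricles. Tap2 read 7.19 in knockout atria and 6.92 in wild type atria, and 6.93 in knockout ventricles and 6.90 in wild type ventricles. Neither passed a fold in any comparison, and Cftr, the chloride channel of epithelia, was under the floor on all 4 arrays.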

How the data were processed

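The authors deposited 1 log2 intensity for each probe set and array, made with RMA and the affy package, per the submitters' processing notes. The sources used here give no versions and no array design. RMA corrects background, normalizes between arrays and summarises probes, and it compresses differences near background.

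Of 21212 probe sets, 18786 carried 1 symbol in the platform annotation, 6 had several and 2420 had no entry. Symbols were updated through the RefSeq gene table of GRCm38.p6 (18775 by gene number, 6 by accession, 5 kept). The brightest probe set was kept per symbol, leaving 18781 genes.

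Each ratio is the difference of 2 log2 values from single arrays and was not tested. Limma 3.58.1 (R 4.3.3) fitted genotype and chamber as additive terms over the 4 arrays, an analysis added after the values were seen. The brighter array had to reach the floor, the median of the table, and the ratio 1.5-fold (genotype) or 2-fold (chamber). Alternatives were median centring, quantile normalization, lowess centring (span 0.3), no floor, a floor at the 75th percentile, and other folds. Counting and the fit were checked on simulated data. The counting check planted changes only in genes well above the floor, and the fit check held no chamber difference. Neither covered genotype effects that differ between chambers. Genes were named if past a fold in any comparison, if next to or closely related to such a gene, or for a known role, and list members by their size. Members and lists were chosen with earlier results of these data known. The motifs and the windows shown were chosen after the values were seen. Tools were Python 3.11.15, pandas 2.3.3 and statsmodels 0.14.6.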

Additional observations from a re-analysis of the deposited data

How the results depend on the processing

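The counts of ABC genes past the fold did not move under median centring, quantile normalization or lowess centring by over 1.5 times in any comparison, and 19 of 28 counts in all stayed within that range. In knockout against wild type atria the 3 genes became 5 without a floor (Abca15 and Abca4 added as higher), 0 with a floor at the 75th percentile, 8 at a log2 ratio of 0.32 and 1 at 2-fold (Abcb4). All genes gave 2.97%, 2.27%, 16.1% and 0.647% under these settings. In ventricles the 2 genes became 1 (Abcb4) with the floor at the 75th percentile (1.11% of all genes). At 1.5-fold the chamber counts of 4 became 11 in the knockout and 9 in wild type (17.9% and 16.3% of all genes), and at 4-fold 0 in each (1.14% and 1.2%). Single arrays limit every value. Abcb1b and Abcd2 rest on wild type atria values of 5.98 and 5.80, next to the floor at 5.71. The atrial count of Abcb4 rests on 6.20 in wild type atria, with 5.13 in knockout atria under the floor. Abca4 rests on the 1 array where it reached the floor, at 6.65 in knockout ventricles. Of 240 recomputed ratios of single genes, 239 kept their call, but most of these had passed no fold as deposited. None that passed a fold changed sign. The labels number no replicates, and the fit that keeps chamber as a term, chosen after seeing the data, called Abcb4 between genotypes. Leaving out an array ends a comparison, so that was not run.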
